A study of Mus musculus with 8 samples.

Results

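NA3 is one of the 5 noradrenergic subtypes into which the authors clustered sympathetic neurons of the mouse stellate ganglion, the ganglion beside the upper thoracic spine that supplies the heart and forelimb. Its members were the neurons that carry the subtype name NA3 in the deposited annotation, 99 of 1303 neurons in all and of 1140 noradrenergic neurons. They were set against the other 1041 noradrenergic neurons, of which 316 were NA1a, 311 NA1b, 239 NA1c and 175 NA2. The subtypes had been drawn by the authors from these same cells and genes, so the differences below describe NA3 and are no test of the grouping. The test over mice sets each difference against the scatter of all 5 subtypes from mouse to mouse, after what is common to a mouse is taken out.

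The neurons came from both stellate ganglia of 8 wildtype C57BL/6J mice, aged 8 to 10 weeks, all of them under the same condition. Each mouse had received AAV-GFP in the heart and AAV-tdTomato in the front paws, viruses that are carried back along axons and mark the neurons that reach each site. Dissociated cells were sequenced on the 10x droplet platform, in which each captured RNA molecule is counted once through a unique molecular identifier (UMI). Neurons had been taken by the authors from clusters that carry neuronal genes such as Snap25 and Syt1, and the non-neuronal cells were not analysed here. Mice whose names fit 1 sample are called replicates 1 to 5, and the 301 neurons of the other 3 mouse names, 7 of them NA3, were given pooled only.

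Noradrenergic sympathetic neurons make noradrenaline from tyrosine through tyrosine hydroxylase (Th), an aromatic amino acid decarboxylase (Ddc) and dopamine beta-hydroxylase (Dbh), load it into vesicles through Slc18a2 and take it back up through Slc6a2. In a ganglion each cell body is wrapped closely by satellite glia, whose known transcripts include the lipid carrier Apoe, the brain lipid-binding protein Fabp7 and the matrix protein Sparc. Immediate early genes such as Fos and Egr1 are switched on within minutes by activity or stress, and heat shock genes by unfolded protein.

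The share of NA3 differed widely between mice. NA3 made up 5.29%, 9.79%, 4.24%, 5.96% and 19.8% of the neurons of replicates 1 to 5, with 9, 23, 7, 14 and 39 neurons. The mean was 9.02% ± 6.38 (SD, n = 5). Among the 301 neurons of the other 3 mouse names, pooled, NA3 made up 2.33%, below each replicate. The study lists replicates 1 to 5 in batch 2 and its other 3 mice in batch 1. A difference between batches thus cannot be told apart from one between mice. Replicate 5 held the most and replicate 3 the fewest, so only replicates 2, 4 and 5 reached the 10 neurons asked of a profile, which is the mean of all neurons of a subtype in a mouse.

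Sequencing depth did not separate NA3 from the rest in the same way in each mouse. The mice held 165 to 235 neurons and 916296 to 1196621 UMIs each. The median NA3 neuron had 6773 UMIs and 2934 genes, against 6524.5 UMIs for NA1a, 3252 for NA1b, 2685 for NA1c and 2461 for NA2. Within NA3 the median was 8790, 14025, 9874, 4209 and 4711 UMIs in replicates 1 to 5, so replicate 2 stood well above replicates 4 and 5. On the log2 scale the difference of NA3 from the other subtypes was 0.53 ± 1.33 (SD, n = 3, from -0.28 to 2.06, two-sided exact sign-flip permutation test, p = 1, where 0.25 is the smallest possible). Without replicate 2 its direction turned, at -0.24. Of all neurons, 73 carried one of 21 cell barcodes found in more than 1 library. Of these, 55 were NA2 and 0 were NA3, and the comparisons were run without them as well.

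All levels below are UMIs of a gene per 10000 UMIs of a neuron, averaged over the neurons of a profile. Differences are log2 differences, NA3 minus another subtype or the mean of the other 4, with 0.1 added to each level. A gene is called higher or lower in NA3 where limma, with the mouse as a term, gave a Benjamini-Hochberg adjusted p under 0.05 over all genes tested. Of 6185 genes tested, 521 (8.42%) were called higher in NA3 than the mean of the other subtypes and 667 (10.8%) lower, 1188 (19.2%) in all, and 1149 of these had the same direction in each of the 3 mice. The split depended on the settings, with 553 higher and 553 lower after centring on the median gene, 1285 higher and 548 lower with no filter on low levels, and 708 higher and 452 lower with means of natural log values. The median over all genes was -0.17. The shares of 8.42% higher and 10.8% lower are those beside which the main counts of each list below stand. Of the genes tested, 396 passed the filter on low levels only through the NA3 profiles, and 235 of those were called higher. Of the 5789 that passed without NA3, 286 were called higher and 667 lower, and below it is said where members of a list passed only through NA3. Overlap of ranges was looked at in named genes only. The share of all tested genes without overlap was not computed, so a lack of overlap describes those genes alone.

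The markers that had been named for NA3 were far above the other subtypes in every mouse. Apoe had a level of 150.9, 213.4, 311.5, 123.5 and 140.4 in NA3 of replicates 1 to 5, against 2.06 to 13.5 in the 20 profiles of the other subtypes. Fabp7 had a level of 62.3, 69.8, 42.4, 27.5 and 52.4, against 0.193 to 4.85. Sparc had 20.0, 27.7, 26.3, 13.5 and 16.5, against 0.211 to 2.35. In all 3 genes the lowest NA3 value lay above the highest of the other subtypes. The log2 difference from the mean of the other subtypes was 5.13 ± 0.24 (SE) for Apoe, 5.04 ± 0.34 for Fabp7 and 4.74 ± 0.33 for Sparc, each in 3 of 3 mice. Vim, the intermediate filament of glia and mesenchymal cells that the study stained to find NA3, had 22.5, 34.7, 33.6, 14.0 and 22.2, against 0.466 to 2.49, a difference of 4.12 ± 0.28.

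The 2 immediate early markers stood apart in the same way. Fos, a subunit of the AP-1 transcription factor, had a level of 11.2, 16.3, 6.95, 17.9 and 17.9 in NA3 of replicates 1 to 5 and of 0.310 to 1.51 elsewhere, a difference of 4.15 ± 0.30. Egr1, a zinc finger transcription factor, had 6.52, 5.27, 2.91, 12.1 and 7.14, against 0.0333 to 2.01, a difference of 3.50 ± 0.43. Replicate 3, with 7 NA3 neurons, had the lowest value of both genes and the highest of Apoe. For Egr1 the gap was narrower, since NA1b and NA1c averaged 1.07 ± 0.270 and 1.07 ± 0.574 (SD, n = 5), and NA3 was above them by 2.70 and 2.78, against 4.17 and 4.36 above NA1a and NA2.

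**Figure D1:**
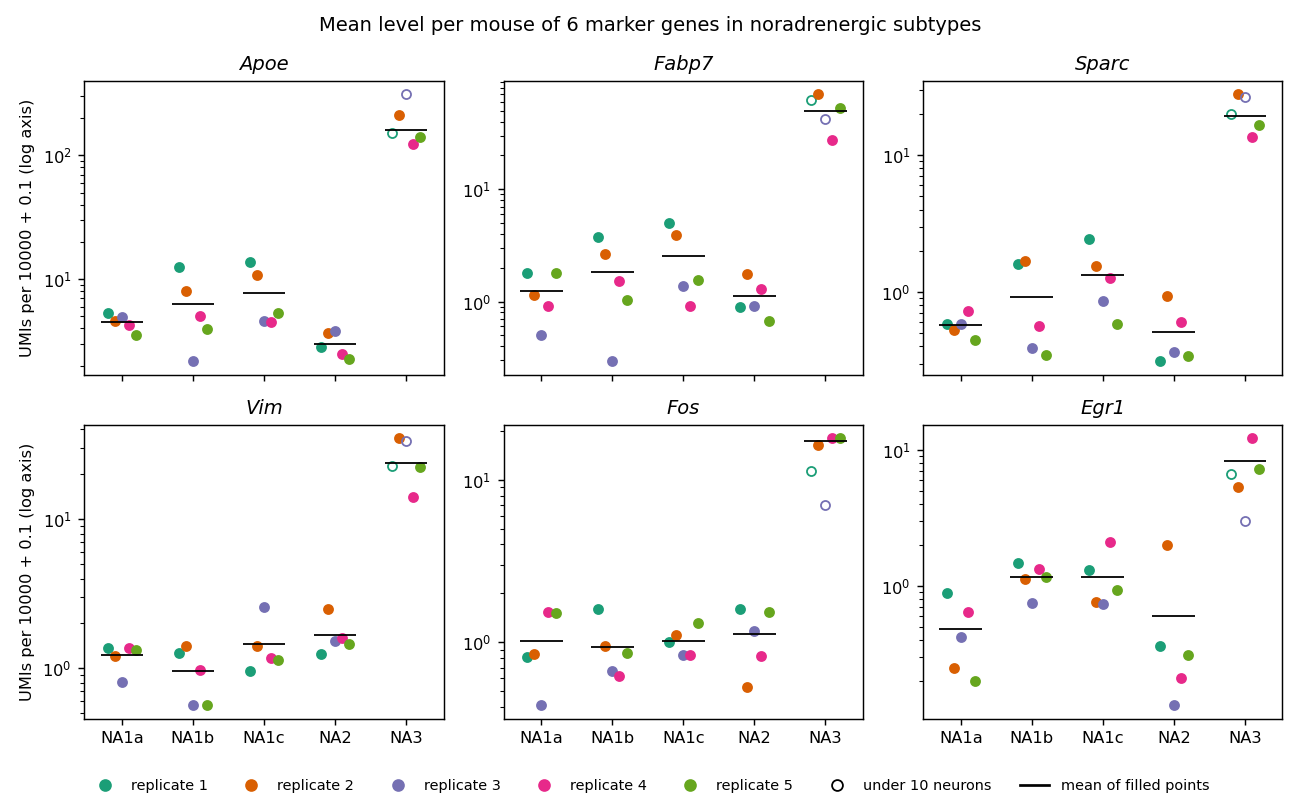
Level of the 6 markers in UMIs per 10000 on a log axis, by subtype. Each point is the mean over the neurons of 1 mouse, with colours for replicates 1 to 5, and open points are NA3 means over fewer than 10 neurons. In each panel the 5 NA3 points lie above all points of the other subtypes.

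Nearly every NA3 neuron carried these transcripts. A UMI of Apoe was found in 99 of 99 NA3 neurons (100%) and in 68.7% of the other noradrenergic neurons. For Sparc the shares were 92.9% and 18.3%, for Vim 94.9% and 32.9%, for Fabp7 90.9% and 39.1%, for Fos 90.9% and 27.3%, and for Egr1 86.9% and 20.3%. The median depths were 6773 UMIs in NA3 and 3643 in the others, so shares of neurons with a UMI are not at equal depth. Thinning neurons to 2000 UMIs cannot settle this through the share of UMIs on a list, since random thinning leaves that share unchanged in expectation. For satellite glia genes the share was 4.00% in NA3 before thinning and 4.18% after. The values for NA1a, whose median depth was close to that of NA3, were 0.238% and 0.234%.

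Most NA3 neurons carried genes of noradrenaline synthesis, though the share of such UMIs in cells that lack these genes was not analysed here. All 99 also had a UMI of at least 1 of Snap25, Syt1, Pcsk1n and Prph, which the choice of neurons by these genes fixes. Dbh was found in 90.9% of NA3 and 92.6% of the other noradrenergic neurons, and Th in 76.8% and 86.0%. Dbh, Th and Snap25 were found together in 69 NA3 neurons (69.7%), against 73.8% of the others, and 6 NA3 neurons had neither Dbh nor Th. In 80 of 99 neurons Apoe, Fabp7, Sparc and Dbh were found in the same droplet.

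Satellite glia genes made up 4.00% ± 1.31 (SD, n = 3) of all UMIs in NA3. In NA3 of replicates 1 to 5 the share was 4.25%, 5.45%, 6.30%, 2.89% and 3.68%. In the other subtypes it averaged 0.238% for NA1a, 0.279% for NA1b, 0.306% for NA1c and 0.313% for NA2 (n = 5 each). The lowest NA3 mouse was thus several times above the mean of any other noradrenergic subtype. The list holds Apoe, Fabp7 and Sparc, so its share partly repeats the markers named for NA3. Apoe alone was 34.8%, 40.2%, 52.2%, 43.9% and 42.7% of the list's UMIs in NA3 of replicates 1 to 5. Of the 29 genes listed for satellite glia, 23 were tested. Of these, 21 were called higher in NA3 and 1 lower, beside 8.42% and 10.8% of all genes, with a median difference of 3.86. Of the 23, 11 passed the filter only through NA3. Of the other 12, 10 were called higher and 1 lower.

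The members covered different jobs of a glial cell. Gpm6b, a membrane proteolipid, had the largest difference of all genes, 5.24 ± 0.51, at 13.9, 18.1, 18.8, 10.6 and 11.1 in NA3 and 0 to 2.57 elsewhere. Dbi, the acyl-CoA binding protein that is also a ligand of benzodiazepine sites, had 67.2, 94.5, 105, 34.6 and 50.2, against 1.16 to 5.70, a difference of 4.29 ± 0.26. Cst3, a secreted protease inhibitor that neurons also make, had 52.8, 46.0, 61.4, 33.9 and 41.8, against 4.53 to 20.5, a smaller difference of 2.44 ± 0.18. These 3 genes had no overlap between NA3 and the other subtypes. Sdc4, a cell surface proteoglycan, differed by 4.58 ± 0.37, and the calcium-binding S100b by 3.96 ± 0.39. Sox10 and Sox2, the transcription factors of peripheral glia, were at low levels, 0.432 to 1.88 and 0.636 to 1.97 in NA3 over replicates 1 to 5, and differed by 3.00 ± 0.43 and 3.12 ± 0.36. S100b, Sdc4, Sox10 and Sox2 passed the filter only through NA3. Mt3, a metallothionein that neurons make too, went the other way, with 1.94, 3.60, 3.31, 1.88 and 1.98 in NA3 and 2.02 to 10.5 elsewhere, and was called lower, with a difference of -0.95 ± 0.23. Glul, the glutamine synthetase, was not called (0.75 ± 0.33), and Gfap was at 0 in NA3 in all 5 replicates.

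Genes outside the list with the largest differences were of the same order. Igfbp4, a secreted binding protein of insulin-like growth factors, differed by 4.66 ± 0.39, Art3 by 4.65 ± 0.38 and Lpar1, a receptor of lysophosphatidic acid, by 4.50 ± 0.44. Igfbp4 was found in 73.7% of NA3 and 4.61% of the other noradrenergic neurons. In NA3 its level lay between 2.85 and 4.38 in replicates 1 to 5, and elsewhere between 0 and 0.409. Igfbp4 thus passed the filter on low levels only through NA3, so that its being called higher was close to fixed. For Art3 and Lpar1 the filter without NA3 is not reported here.

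Neuron by neuron, the glial share was a range and not a fixed amount. In NA3 its median was 4.30%, from 0.38% to 11.1%, while 95% of the other noradrenergic neurons lay under 0.614% and their highest value was 3.56%. Of the 99 NA3 neurons, 90 were above 0.614% and 61 above the highest other neuron. None of the 1041 others reached the NA3 median. The 9 NA3 neurons at or under 0.614% came from replicates 3, 4 and 5, with 1, 5 and 3 neurons.

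**Figure D2:**
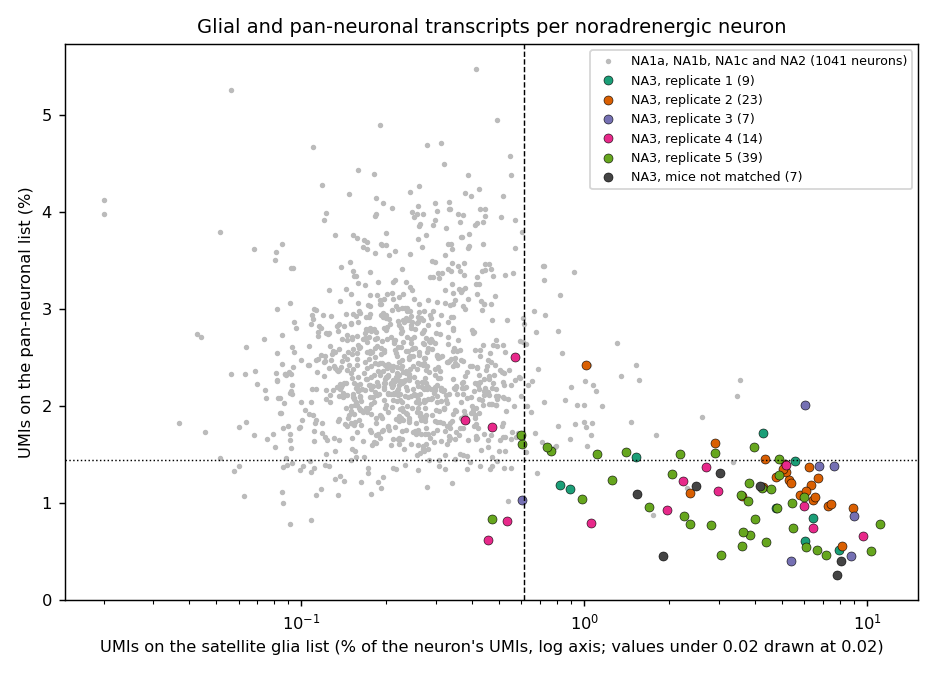
Percent of UMIs on the satellite glia list (horizontal, log axis) and on the pan-neuronal list (vertical, linear axis) in each noradrenergic neuron. Grey points are the 1041 other neurons and coloured points the 99 NA3 neurons by mouse. The dashed line is the 95th percentile of the others for glia (0.614%), the dotted line their 5th percentile for pan-neuronal genes (1.44%). Glial shares under 0.02% are drawn at 0.02%. NA3 lies to the right of the grey cloud and mostly under the dotted line.

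The proportions of 2 glial transcripts to each other were set beside those in the other neurons of the same mouse. Of the UMIs of Fabp7 and Apoe together, Fabp7 made up 32.4%, 25.1%, 11.3%, 18.5% and 23.9% in NA3 of replicates 1 to 5, and 24.7%, 24.8%, 11.9%, 19.6% and 23.6% in the other noradrenergic neurons. The exact 95% Clopper-Pearson intervals, which cover counting error only, overlapped in replicates 2 to 5. In replicate 1 they did not, with 30.4% to 34.5% in NA3 and 21.5% to 28.2% in the others. Replicate 3 was lowest in both groups, with 10.1% to 12.5% in NA3 and 8.49% to 16.0% in the others. Sparc in the UMIs of Sparc and Apoe was 12.2%, 11.3%, 7.30%, 9.97% and 9.13% in NA3, against 11.2%, 13.6%, 13.8%, 13.7% and 7.35% in the others, with intervals that overlapped in every mouse but replicate 3. Other members did not keep 1 ratio. Mt3 made up 0.447% to 0.597% of the list's UMIs in NA3 and 17.0% to 25.0% in the others, and Cst3 8.61% to 11.9% and 25.1% to 35.3%. What gave rise to the glial UMIs in either group was not tested.

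**Figure D3:**
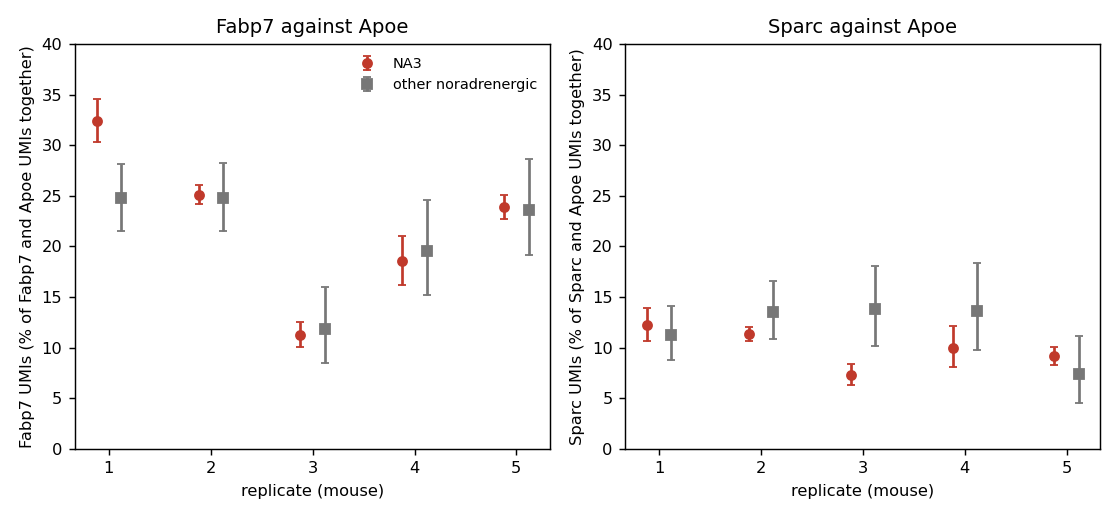
Fabp7 as a percent of Fabp7 and Apoe UMIs (left) and Sparc as a percent of Sparc and Apoe UMIs (right). Points are NA3 and the other noradrenergic neurons of replicates 1 to 5, with exact 95% Clopper-Pearson intervals. For Fabp7, replicate 3 is low in both groups, at 11.3% and 11.9%, and the intervals are apart only in replicate 1. For Sparc the intervals are apart only in replicate 3.

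Genes that neurons share were lower in NA3. Of the 19 pan-neuronal genes listed, 18 were tested, and 0 were called higher and 17 lower, with a median of -1.07 beside -0.17 over all genes. Their share of UMIs was 1.10%, 1.23%, 1.08%, 1.20% and 1.04% in NA3 of replicates 1 to 5, and averaged 2.38% for NA1a, 2.27% for NA1b, 2.13% for NA1c and 3.45% for NA2. Snap25, a membrane protein of vesicle fusion, had 4.52, 4.29, 2.37, 5.16 and 5.12, against 6.55 to 10.9, a difference of -0.91 ± 0.17. Syt1, the calcium sensor of release, differed by -1.12 ± 0.16, Pcsk1n, an inhibitor of prohormone convertase, by -1.25 ± 0.18, and Prph, the peripheral intermediate filament, by -0.86 ± 0.16. Stmn2, a microtubule regulator of growth cones, had 14.5, 17.0, 13.6, 14.6 and 12.3, against 18.6 to 56.1. For Snap25 and Stmn2 no NA3 value reached the range of the other subtypes.

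UMIs of a neuron share 1 total, so levels of genes are not independent of each other. Genes called higher took a median of 31.3% of the UMIs of an NA3 neuron, against 14.2% for NA1a, 13.5% for NA1b, 12.7% for NA1c and 12.3% for NA2. When these genes were left out of the total, the pan-neuronal share in NA3 of replicates 2, 4 and 5 was 1.86%, 1.64% and 1.43%. In NA1a it was then 2.68%, 2.94% and 2.57%, and in NA1c 2.39%, 2.28% and 2.42%. The genes left out had been chosen on the same difference, and the part that the shared total has in the pan-neuronal difference was not tested. Per neuron, NA3 held 91.7 ± 61.8 (SD, n = 3) pan-neuronal UMIs on average over mice. The others held 205 ± 27.2 (NA1a), 140 ± 46.0 (NA1b), 87.3 ± 15.9 (NA1c) and 148 ± 76.8 (NA2), with n = 5 each. The NA3 value follows depth, with a median of 14025 UMIs in replicate 2 against 4209 and 4711 in replicates 4 and 5. With the glial lists removed and the rest rescaled, 0 pan-neuronal genes were called higher and 16 of 18 lower, with a median of -1.02. In that setting 560 of 6198 genes in all were called lower.

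Of 10 genes of noradrenaline handling, 10 were tested, and 0 were called higher and 7 lower, with a median of -0.61. At 2000 UMIs per neuron 4 were called lower, where 471 of 6888 genes in all were. With means of natural log values 4 were called lower as well, where 452 of 6185 genes were. Th had 2.79, 3.08, 2.73, 2.34 and 3.29 in NA3, against 4.40 to 10.6 elsewhere, with no overlap and a difference of -1.02 ± 0.17. Dbh had 6.59, 4.79, 9.37, 3.95 and 7.67, against 5.69 to 14.2, so its ranges overlapped, and differed by -0.95 ± 0.20. At 2000 UMIs per neuron Dbh was no longer called. Ddc differed by -1.04 ± 0.21, the noradrenaline transporter Slc6a2 by -0.66 ± 0.17, Cyb561, an electron carrier of the vesicle membrane, by -0.88 ± 0.17 and the vesicular transporter Slc18a2 by -0.54 ± 0.18. Slc18a2 depended on the partner, at -1.09 ± 0.21 from NA1a and 0.55 ± 0.21 from NA2. Slc6a2 was no longer called without replicate 4 or at 2000 UMIs per neuron.

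Transcription factors that specify sympathetic neurons were lower as well, with 8 of 10 listed genes tested, 0 called higher and 7 lower, and a median of -1.06. Without replicate 5 the number called lower was 4, where 458 of 6581 genes in all were. Without replicate 2 or without replicate 4 it was 5, where 544 of 6560 and 341 of 6504 genes were. Hand2 had 1.69, 3.29, 4.06, 2.24 and 3.51, against 3.13 to 8.17, and differed by -1.01 ± 0.19. Phox2a differed by -1.21 ± 0.23, Tfap2b by -1.30 ± 0.24 and Isl1 by -0.74 ± 0.22. Of these 4 genes only Tfap2b had no overlap, with 0.470 to 1.04 in NA3 and 1.11 to 2.41 elsewhere. Isl1 was no longer called without replicate 2 or without replicate 5. Chrna3, the ganglionic nicotinic receptor subunit, differed by -1.24 ± 0.27 and was the only 1 of 4 tested nicotinic genes that was called, though not without replicate 4.

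Npy is the peptide co-transmitter by which the study told subtypes apart, with NA3 and NA1b counted as low. Npy was at an intermediate mean level in NA3. It had 7.46, 27.5, 23.4, 16.4 and 15.4 in NA3 of replicates 1 to 5, or 19.8 ± 6.74 (SD, n = 3). The other subtypes averaged 82.4 ± 8.26 (NA1a), 43.3 ± 5.11 (NA1c), 40.9 ± 8.45 (NA2) and 8.95 ± 3.61 (NA1b), each with n = 5. NA3 was below NA1a by -2.05 ± 0.22, below NA1c by -1.12 ± 0.22 and below NA2 by -1.02 ± 0.22, and above NA1b by 1.21 ± 0.22, each in 3 of 3 mice and each called. NA1c and NA2 next to each other in this order overlapped in range. In replicate 1, which had too few NA3 neurons for a profile, the NA3 level of 7.46 lay below the NA1b mean. Against the mean of the other subtypes the difference was -0.75 ± 0.19, and it was not called without replicate 4, without replicate 5 or with UMIs summed in place of averaged. Gal, the galanin peptide, was at 5.02 ± 0.854 in NA3, between NA1b (3.60 ± 1.40) and NA1c (10.3 ± 2.29), with NA2 (13.3 ± 3.60) and NA1a (23.0 ± 10.0) above these. Vip, a peptide of cholinergic sympathetic neurons, was found in 25.3% of NA3 and 11.3% of the other noradrenergic neurons and was not called (1.01 ± 0.49).

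Other neuronal lists were lower in part. Of 18 genes of synaptic vesicle release, 18 were tested, and 0 were called higher and 9 lower, with a median of -0.86. With a minimum of 5 neurons 15 were called lower, where 1116 of 5479 genes in all were called lower. Sncg, a synuclein of peripheral neurons, differed by -0.98 ± 0.17, Syn2, a synapsin, by -0.96 ± 0.19 and Sv2a, a vesicle glycoprotein, by -1.32 ± 0.25. Of 10 granin and prohormone genes, 1 was called higher and 3 lower, beside 8.42% and 10.8% of all genes. Without replicate 5 the counts were 0 and 1, beside 429 and 458 of 6581 genes. Among those lower was the granin Scg2 (-1.13 ± 0.24), which was not called at 2000 UMIs per neuron. Cpe, the carboxypeptidase that trims peptide hormones, was the exception, with 3.89, 5.21, 6.33, 2.65 and 3.55 in NA3 and 0.957 to 4.08 elsewhere, a difference of 0.96 ± 0.26 that was not called without replicate 2, without replicate 5 or at 2000 UMIs per neuron.

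Of 27 voltage-gated channel genes, 22 were tested. Of the 20 that passed the filter without NA3, 0 were called higher and 9 lower. Without replicate 2 the list had 5 called lower, where 544 of 6560 genes in all were. Kcna1 and Kcna2, which encode Kv1 potassium channel subunits, passed the filter only through NA3, and both were called higher. Kcna1 lay between 1.14 and 3.44 in NA3 of replicates 1 to 5, against 0 to 0.528 elsewhere, and was found in 60.6% of NA3 and 2.31% of the other noradrenergic neurons, with a difference of 4.20 ± 0.48. Kcna2 differed by 2.60 ± 0.44 and was found in 61.6% and 7.59%. Among those lower, the sodium channel Scn9a differed by -0.87 ± 0.20 and the calcium channel Cacna1a by -0.80 ± 0.25, and neither was called without replicate 2. Against NA2, 9 of the 22 were called higher and 4 lower, where 21.9% of all genes were called higher and 17.3% lower.

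The lowest genes relative to the other subtypes were at low levels throughout. Resp18, a neuroendocrine protein of the secretory pathway, had 0.949, 0.767, 0.874, 0 and 0.389, against 0.677 to 2.62, a difference of -2.16 ± 0.33. Ube2q2 (-2.04 ± 0.34), Samd4 (-2.01 ± 0.34), Ppp2r5b (-2.01 ± 0.38) and Ttl (-1.97 ± 0.37) followed, and then Apba2 (-1.92 ± 0.39), Nfasc (-1.91 ± 0.32), Gnaz (-1.91 ± 0.32), Rgs7 (-1.90 ± 0.35) and Tm4sf4 (-1.88 ± 0.42). Nfasc encodes neurofascin of the axon initial segment and nodes. Apart from Apba2 and Nfasc, these genes were at 0 in the 14 NA3 neurons of replicate 4, and Ppp2r5b, Ttl and Tm4sf4 were no longer called without that mouse.

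Immediate early genes were higher as a list. Of 24 genes listed, the markers Fos and Egr1 among them, 18 were tested. Of these, 16 were called higher and 0 lower, beside 8.42% and 10.8% of all genes, with a median of 2.41. Of the 13 that passed without NA3, 11 were called higher. Their share of UMIs was 0.648%, 0.721%, 0.480%, 0.939% and 0.810% in NA3 of replicates 1 to 5, and averaged 0.137% for NA1a, 0.117% for NA1b, 0.144% for NA1c and 0.127% for NA2. Jun, the partner of Fos, had 14.9, 17.1, 13.7, 16.2 and 14.4, against 1.02 to 3.60, a difference of 2.70 ± 0.23. Junb, a further AP-1 subunit, differed by 3.46 ± 0.30, and Jund, which is made without a stimulus, by 1.31 ± 0.20. Atf3, a factor of stress and axon injury, had 3.12, 4.71, 0.669, 3.64 and 7.34, against 0.0436 to 0.682, so that replicate 3 fell within the other subtypes, and differed by 3.55 ± 0.39. The nuclear receptor Nr4a1 differed by 2.30 ± 0.31 and Zfp36, which destabilises messenger RNA, by 3.17 ± 0.34, the latter having passed only through NA3. Npas4, which follows calcium entry in neurons, was not called (-0.13 ± 0.44).

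Of 13 heat shock chaperones, 13 were tested, and 5 were called higher and 0 lower, beside 8.42% and 10.8% of all genes. Their median was 0.57. The inducible Hsp70 gene Hspa1a had 27.6, 39.2, 3.44, 39.6 and 26.3, against 1.51 to 7.35 elsewhere, a difference of 2.92 ± 0.20. Its copy Hspa1b had 10.7, 11.1, 2.68, 9.31 and 9.92, against 0.682 to 4.53, a difference of 2.41 ± 0.25. In replicate 3 both lay within the other subtypes. Cryab, a small chaperone also made by glia, differed by 3.87 ± 0.46, the co-chaperone Dnajb1 by 1.09 ± 0.28 and the mitochondrial Hspe1 by 0.85 ± 0.20. The chaperones that cells make at all times were not called, at 0.03 ± 0.19 for Hsp90aa1, -0.12 ± 0.17 for Hspa8 and -0.31 ± 0.16 for Hsp90ab1. Of 9 axon injury genes, 3 were tested, of which the tubulin Tubb2b was called lower (-1.11 ± 0.18).

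The upstream sequence of 4 of these genes is shown because the genes stood out in NA3 and the letters of a known response element lie in it. Sequences are the 250 bases before the RefSeq start in GRCm38.p6, read 5′ to 3′ on the strand of the gene, with the element in capitals. All 4 genes lie on the minus strand, and positions count bases from the start. The heat shock element GAANNTTC lies at -104 in Hspa1a (chr17:34972157-34972406) and Hspa1b (chr17:34959239-34959488). The cyclic AMP response element TGACGTCA lies at -166 in Btg2 (chr1:134079156-134079405), an antiproliferative early gene called higher by 1.71 ± 0.41. The CArG box, bound by serum response factor, lies at -58 in Zfp36 (chr7:28379229-28379478).
Hspa1a: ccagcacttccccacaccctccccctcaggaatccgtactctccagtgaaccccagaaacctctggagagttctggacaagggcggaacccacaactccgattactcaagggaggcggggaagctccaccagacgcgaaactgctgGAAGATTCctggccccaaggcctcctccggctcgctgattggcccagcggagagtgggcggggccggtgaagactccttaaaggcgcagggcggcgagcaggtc
Hspa1b: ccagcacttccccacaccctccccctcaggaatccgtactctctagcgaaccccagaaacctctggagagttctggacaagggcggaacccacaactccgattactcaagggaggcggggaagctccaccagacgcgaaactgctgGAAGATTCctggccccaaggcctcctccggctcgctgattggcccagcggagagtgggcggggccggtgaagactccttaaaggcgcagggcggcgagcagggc
Btg2: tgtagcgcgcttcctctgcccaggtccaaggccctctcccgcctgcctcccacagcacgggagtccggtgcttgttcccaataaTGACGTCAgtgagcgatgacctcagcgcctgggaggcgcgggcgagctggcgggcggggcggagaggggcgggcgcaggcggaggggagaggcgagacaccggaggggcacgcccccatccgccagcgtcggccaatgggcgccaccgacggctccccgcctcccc
Zfp36: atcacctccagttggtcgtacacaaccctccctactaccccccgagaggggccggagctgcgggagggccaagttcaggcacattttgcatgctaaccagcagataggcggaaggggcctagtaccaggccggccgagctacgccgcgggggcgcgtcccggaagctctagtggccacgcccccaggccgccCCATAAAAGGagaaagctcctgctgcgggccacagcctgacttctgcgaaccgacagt

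The Hspa1a and Hspa1b windows were identical at 247 of 250 bases, and how reads of such near-identical copies were divided between the 2 genes is uncertain. On either strand, the heat shock element was in 6 of the 14 windows (42.9%) of the 9 chaperone genes matched to RefSeq. It was in 6.69% of all 32851 windows. The windows with it belonged to 6 genes, 3 of them among those called higher, with the near-identical Hspa1a and Hspa1b counted as 2. The cyclic AMP response element was in 2 of 19 matched immediate early genes, Btg2 and Dusp1, and in 1.55% of all windows. Dusp1 was not called (0.35 ± 0.37). The CArG box was in 1 of 19, Zfp36 (5.26% of the windows of the list), and in 1.47% of all windows. The elements were also found before pan-neuronal genes, which were lower in NA3, with the CArG box in 11.1% and the heat shock element in 22.2% of their 18 windows. These matches describe letters and not binding.

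Glial and early gene transcripts were both high in most NA3 neurons. Of 99 NA3 neurons, 89 were above 0.283%, under which 95% of the other noradrenergic neurons lay for the early gene list, and 80 were above the limits of both lists. All 9 NA3 neurons with a low glial share were above the early gene limit. Within NA3 the Spearman correlation of the 2 shares over neurons was 0.11 (n = 99), and 0.03, 0.14 and 0.54 in replicates 2, 4 and 5.

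**Figure D4:**
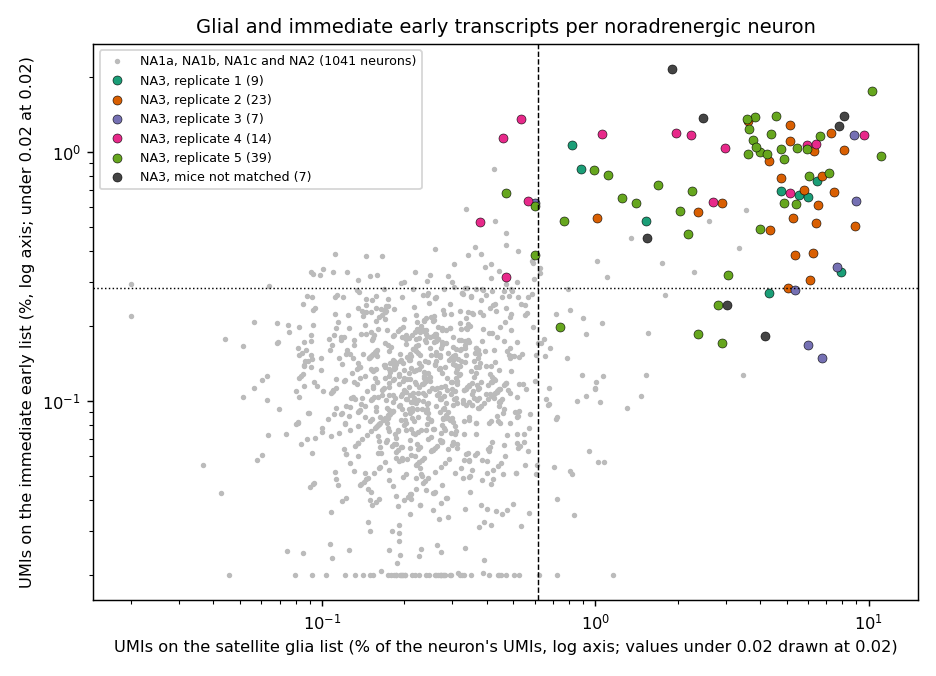
Percent of UMIs on the satellite glia list (horizontal) and on the immediate early gene list (vertical) in each noradrenergic neuron, both on log axes. Grey points are the 1041 other neurons and coloured points NA3 by mouse, the lines are the 95th percentiles of the others (0.614% and 0.283%), and values under 0.02% are drawn at 0.02%. Of 99 NA3 neurons, 80 lie above both lines.

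The 9 NA3 neurons with few glial UMIs were compared with the other 90 as a description. Their median glial share was 0.533% and that of the 90 was 4.67%. Their median early gene share was 0.622%, against 0.747% in the 90 and 0.112% in other noradrenergic neurons. Their median pan-neuronal share was 1.61%, against 1.09% and 2.30%. The 9 thus lay between the 90 and the other subtypes in pan-neuronal genes. Their median share of noradrenaline genes was 0.330%, beside 0.359% in the 90 and 0.617% in the others. Their median depth was 5148 UMIs, against 7903.5 in the 90.

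Over NA3 neurons the Spearman correlation of the glial share with the pan-neuronal share was -0.38 (n = 99), with -0.66, -0.29 and -0.55 in replicates 2, 4 and 5, and -0.40 over the 90 neurons that could be thinned to 2000 UMIs. With the share of noradrenaline genes it was -0.15, and -0.24, -0.03 and -0.27 in the 3 mice. Some neuronal genes had positive values over all neurons, such as the granin Scg3 (0.40, and 0.36, 0.43 and 0.08 in the 3 mice). Shares of 1 total tend against each other by construction. With depth the correlation was 0.49, and 0.50, 0.22 and 0.26 within the 3 mice. The 49 neurons with the higher glial shares had a median of 11051 UMIs and the 50 with the lower 4544. Among single genes, set against the rest of the list, Fabp7 (0.80), Apoe (0.80), Sparc (0.79), Dbi (0.78) and Gpm6b (0.76) varied most closely with the glial share. Vim had 0.66 over all neurons, but -0.01, 0.53 and 0.73 in replicates 2, 4 and 5.

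Markers of other cell types were present to unequal degrees. Of 12 Schwann cell genes, 6 were tested and 6 were called higher, beside 8.42% of all genes, 2 of them passing only through NA3. Their median was 2.80, and 2.31 over the 4 that passed without NA3. The myelin protein Mal had 2.27, 4.31, 4.72, 4.03 and 1.87 in NA3 and 0 to 0.606 elsewhere, a difference of 4.49 ± 0.40. Mal passed the filter only through NA3, so that its being called higher was close to fixed. Of 10 fibroblast genes, 4 were tested and 4 were called higher, beside 8.42% of all genes, 2 of them passing only through NA3. The proteoglycan Dcn had 22.4, 6.64, 16.6, 26.3 and 8.89, against 0.358 to 2.54, but was found in 48.5% of NA3 neurons and 21.4% of the others, so fewer NA3 neurons carried it than carried the glial markers. Fibroblast genes made up 0.341%, 0.196%, 0.335%, 0.457% and 0.169% of UMIs in NA3 of replicates 1 to 5 and averaged 0.0173% to 0.0387% in the other noradrenergic subtypes.

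Vascular and immune markers took small shares of UMIs. Endothelial genes made up 0.00606% of UMIs in NA3 and 0.00623% to 0.0111% in the other subtypes, and the endothelial Pecam1 was at 0 in replicates 2, 4 and 5. Smooth muscle genes made up 0.00892%, against 0.00203% to 0.00722%, and 0 of 8 were tested. Immune genes made up 0.0355%, 0.0146% and 0.00493% in NA3 of replicates 2, 4 and 5, so replicate 2 was highest, and averaged 0.00232% to 0.0104% in the other subtypes. Of 13 immune genes, 1 was tested, the lysozyme Lyz2, which passed only through NA3. It was not called against the mean of the others (1.03 ± 0.39) but was without replicate 5. Singly it was called higher than in NA1a, NA1b (1.27 ± 0.46) and NA2 (1.58 ± 0.46), and not against NA1c (-0.24 ± 0.46). The 1 endothelial gene tested, Egfl7, was called lower (-1.22 ± 0.33), though not without replicate 2 or without replicate 5.

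The remaining lists gave mixed counts. Of 11 genes of the Id and Notch pathway, 4 passed the filter, each only through NA3, so that their being called higher was close to fixed and no count is read from it. Hes1, a repressor that Notch switches on, had 3.15, 2.91 and 3.33 in replicates 2, 4 and 5, against 0 to 0.349, and Id3, which blocks basic helix-loop-helix factors, had 4.13, 8.30, 5.21, 5.32 and 4.25, against 0 to 0.781. Within NA3 the share of this list had a Spearman correlation of 0.47 with the glial share (n = 99), and of 0.58, 0.04 and 0.57 in replicates 2, 4 and 5. Of 16 cholesterol synthesis genes, 4 were called higher, 1 lower and 11 neither, beside 8.42% higher and 10.8% lower over all genes. Their median was 0.34. Hmgcs1, an enzyme of the mevalonate pathway, differed by 1.26 ± 0.22 from the mean of the others, by 1.79 ± 0.26 from NA1a and by 0.58 ± 0.26, not called, from NA2. Of 7 intermediate filament genes, 3 were tested, with Vim called higher and the neuronal Ina lower (-0.75 ± 0.26), and Ina was not called without any 1 of replicates 2, 4 or 5. Of the 13 mitochondrially encoded genes, 7 were called higher over the 3 mice, beside 8.42% of all genes. Without replicate 2, 0 were called higher, where 435 of 6560 genes in all were. Their share of UMIs was 8.98%, 11.3%, 4.69%, 5.35% and 6.18% in NA3, so replicate 2 was highest, against means of 3.71% in NA1a and 7.27% in NA2.

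**Figure D5:**
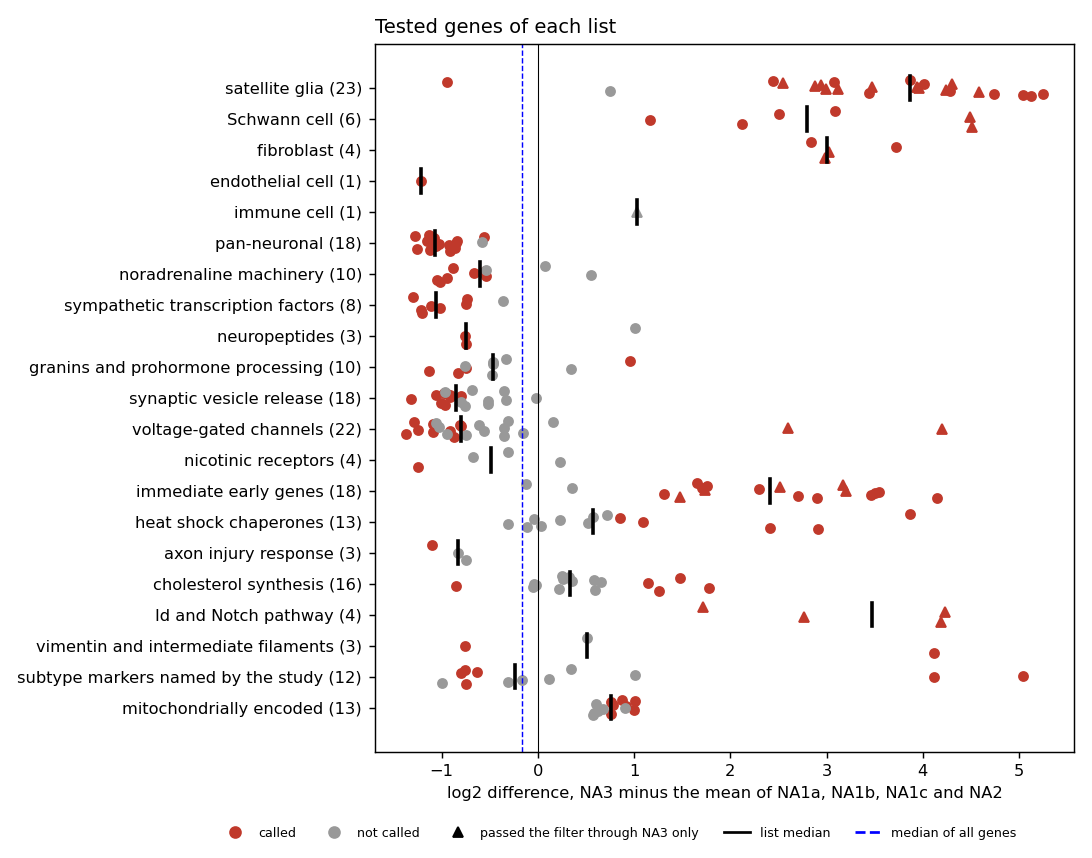
Log2 difference of NA3 from the mean of the other noradrenergic subtypes for each tested gene of the 21 lists with a tested gene, 1 row per list. Each point is a gene, red where called and grey where not, triangles mark genes that passed the filter only through NA3, black bars are the list medians and the dashed line is the median of all genes (-0.17). The satellite glia list centres on 3.86, the immediate early genes on 2.41 and the pan-neuronal list on -1.07.

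Set against each subtype singly, the medians of the satellite glia, pan-neuronal and early gene lists kept their direction. NA3 differed from NA1a in 1182 genes (19.1%), with 451 higher (7.29%) and 731 lower (11.8%). It differed from NA1b in 1400 (22.6%), with 9.02% of genes higher and 13.6% lower, and from NA1c in 1657 (26.8%), with 11.1% higher and 15.7% lower. From NA2 it differed in 2424 (39.2%), with 21.9% higher and 17.3% lower. Satellite glia genes called higher numbered 22 of 23 against NA1a and 21 of 23 against each of NA1b, NA1c and NA2. Against each of NA1a, NA1b and NA2, 1 was called lower. Pan-neuronal genes called lower numbered 13, 14, 15 and 16 of 18 in that order. Early genes called higher numbered 13, 16, 14 and 15 of 18, and 1 was called lower against NA1c. These comparisons share the NA3 profiles and are not independent of each other. Of 13 genes by which the study told subtypes apart, 12 were tested against the mean of the others, with 2 called higher (Vim and Fabp7) and 4 lower. Sctr, the secretin receptor, was in NA3 at 3.49 ± 0.928, below NA1a (7.74 ± 1.78) and NA1c (16.1 ± 4.21) and above NA1b (0.750 ± 0.721) and NA2 (0.988 ± 0.401). Col5a3, a type V collagen chain, was at 9.32 ± 6.53 in NA3 and was called lower than NA1b (-2.06 ± 0.28) and higher than NA2 (3.85 ± 0.28).

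NA3 was not alone among the neurons in carrying glial UMIs. In Ach1, which the study counted as cholinergic and of which 55 of 64 neurons came from replicate 4, satellite glia genes made up 1.74% of UMIs in replicate 4, beside 2.89% in NA3 of the same mouse. Pooled over all its neurons, Ach1 had an Apoe level of 76.2, a Fos level of 7.45 and a Dcn level of 38.6, where the pooled NA3 neurons had 165.2, 16.6 and 12.0. In replicate 4 pan-neuronal genes made up 2.27% of UMIs in Ach1 and 1.20% in NA3, and fibroblast genes 0.510% and 0.457%. With 1 mouse holding most of Ach1 there was no test between them. Of the viral labels, GFP was found in 1 NA3 neuron and tdTomato in 3.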

How the data were processed

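Per the labels and methods, the authors aligned 10x reads of 8 mice to mm10 with Cell Ranger 2.1.1 and clustered the cells, with Seurat and Scanpy named in the processing notes, keeping cells between 500 and 6000 genes that had under 20000 UMIs and under 15% mitochondrial UMIs. No removal of doublets is described, and no doublet caller was run here, so some droplets may have held more than 1 cell. The deposited table held, for 1303 neurons and 19224 genes, UMIs per 10000 after adding 1 and taking the natural log. UMIs were recovered by dividing each neuron's values by its smallest step, which gave whole numbers within 0.01 for 100% of values. Depth per mouse is given in the report; precision is limited by 7 to 39 NA3 neurons in a mouse.

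Levels were averaged over the neurons of a mouse and subtype with at least 10 neurons, giving 23 profiles. Genes that reached a mean level of 0.5 in 3 or more profiles were fitted with limma 3.58.1 in R 4.3.3 on log2(level + 0.1), with subtype and mouse as terms and an intensity trend. The profiles of 1 mouse came from the same animal, which is what pairs them, and the mean residual correlation was 0.0712 for the 42 pairs of profiles from 1 mouse and -0.0180 for the others. P-values measure the spread that the subtype and mouse terms leave, pooled over the profiles of all 5 subtypes, with 14 residual degrees of freedom. Only 3 of the profiles were of NA3, so this spread came mostly from the other subtypes. All of these mice were of batch 2, and the study lists its other 3 mice in batch 1. Shares and per-neuron values were computed in Python 3.11.15 (SciPy 1.17.1, pandas 2.3.3, NumPy 2.4.6), and figures drawn with matplotlib 3.10.9. The fit was tested on simulated data. The 301 neurons of 3 mouse names that fit more than 1 sample entered no test.

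The members and the 22 gene lists were chosen with earlier results of these data known. Genes named were the 6 given markers, genes by which the study named NA3 or chose neurons, the 10 largest called differences in each direction with 1 direction in every mouse, and in each list the 3 genes of highest level and the 2 of largest difference. S100b, Sox10, Sox2, Mt3, Glul, Gfap, Slc18a2, Junb, Nr4a1, Zfp36, Npas4, Btg2, Dusp1, Hspa1b, Dnajb1, Hspe1, Scg3 and Sctr were chosen from the lists after their values were seen. Some genes that the rule names are not reported here. Alternatives were another pseudocount, filters, no mouse term, a minimum of 5 neurons, centring on the median gene, removal of glial lists, summed UMIs, means of natural log values, thinning to 2000 UMIs and leaving out each mouse, and, chosen after seeing the data, leaving out neurons with shared barcodes.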

Additional observations from a re-analysis of the deposited data

Results flagged for a closer look

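In groups of 5 mice, 3 values of the markers lay far from the other 4 mice by Dixon's test, which chance alone does in about 1 in 20 groups. Vim had a level of 2.49 UMIs per 10000 in NA1c of replicate 3 and of 2.42 in NA2 of replicate 2. Egr1 had a level of 1.91 in NA2 of replicate 2. All 3 stayed below the lowest NA3 value of the same gene.

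The 7 NA3 neurons of mice that fit no single sample entered no comparison. Their median share of UMIs on satellite glia genes was 3.02%, from 1.54% to 8.10%, beside 0.241% in the 256 other noradrenergic neurons of those mice.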

How the results depend on the processing

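Of the 84 named genes that were tested in all 16 settings, 51 stayed on the same side of the threshold in each, and no named gene reversed in a setting in which it was tested. The count of genes that differed between NA3 and the mean of the other subtypes was 1188, and 1833 of 16854 genes with no filter on low values, 1285 of them higher and 548 lower. A filter at 0.1 gave 1038 higher and 658 lower, and means of natural log values 708 and 452 against the mean, 797 and 765 against NA1b and 960 and 643 against NA1c. With a minimum of 5 neurons, which brings NA3 of all 5 mice into the fit, 1715 genes differed, 599 higher and 1116 lower. With neurons thinned to 2000 UMIs it was 785, and 749 against NA1a, 1085 against NA1c and 1264 against NA2. Leaving out 1 mouse gave 796 to 1163 genes against the mean, 830 to 1035 against NA1a, 1011 to 1319 against NA1b, 1150 to 1555 against NA1c and 1671 to 2451 against NA2. The difference in depth ranged from -0.24 without replicate 2 to 0.93 without replicate 4. Without replicate 4 the split against the mean was 455 higher and 341 lower. Centring on the median gene moved the split to 553 higher and 553 lower against the mean, 664 and 625 against NA1b, 814 and 696 against NA1c and 1125 and 1384 against NA2, where the uncentred fits had 521 and 667, 558 and 842, 685 and 972, and 1352 and 1072. Without the mouse as a replicate block the counts were 1172, 1072, 1371, 1606 and 2451. The share on satellite glia genes exceeded that of the other subtypes by 3.05 to 4.28 percentage points when 1 mouse was left out, beside 3.73 with all. The cause of these shifts was not tested. Depth limits the low genes, and 3 mice limit all tests.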
